A study of Mus musculus with 188 samples.

Results

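The genes described here are the receptors Egfr, Erbb2 and Erbb3, the receptor inhibitors Lrig1 and Errfi1, and the ligands Hbegf, Tgfa and Areg. They were chosen by name, as rows of the count table whose Ensembl identifier maps to these symbols, and all 8 of 8 were found among 49585 gene rows. All cells were sorted as basal cells of the interfollicular epidermis, the skin between hair follicles, from tail skin of Lrig1-CreERT2/RosaYFP mice at postnatal day 20. The sort kept cells that were Cd34-, Itga6+ and YFP-, and so without the yellow reporter of this strain, in which a tamoxifen-inducible Cre is placed under Lrig1. No tamoxifen treatment is described in the labels, and a YFP- cell shows only that the reporter was not recombined there. Each sample is 1 cell read by Smart-seq2, which copies polyadenylated RNA into full-length cDNA, with 94 cells on each of 2 plates, and they make up a single group. Animals are not named in the labels. The cells were therefore taken as 1 sample, every value describes these cells, and no p-value is given.

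Receptors of this family are tyrosine kinases that work in pairs. Egfr binds Tgfa, Areg and Hbegf, Erbb2 has no known ligand and serves as the partner of the others, and Erbb3 binds neuregulins and signals mainly through its partner because its own kinase is weak. Basal keratinocytes depend on this pathway for proliferation, and they make several of the ligands themselves. Lrig1 is a membrane protein that promotes degradation of the receptors and marks stem cells of the upper hair follicle, and Errfi1 is a cytoplasmic inhibitor that binds the active kinase and is itself induced by signalling. Krt10, a keratin switched on when a basal cell commits to differentiate, served as the axis along which the genes were compared.

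The cells carried the RNA of basal keratinocytes. A cell held 79868 to 1093805 gene counts (median 369991), and Krt14, the main basal keratin, ranged from 1630 to 72198 CPM (the usual scaling of counts to a fixed total, here of the gene counts without spike-ins) with a median of 34405 CPM. Not a single read of Cd34, the bulge marker of the sort, was found. The other 7 genes of the bulge list had reads, and the summed list had a median of 189.5 CPM. Postn had a mean of 158.9 CPM, and Nfatc1 and Tcf7l2 reached 10 CPM in 81 and 76 cells. The absence of Cd34 is therefore no absence of all bulge-list RNA. The defining markers Cd207, Ptprc, Cd3e, Trac, Krt20, Atoh1, Sox10, Pdgfra and Cdh5 of immune, Merkel, pigment, dermal and vessel cells were without a read. Other genes of the same lists had reads, with Dcn at 10 CPM in 56 cells, Thy1 in 29, Pmel in 11, Dct and Mitf in 8 each, and Piezo2 and Pecam1 in 5 each. The summed level of each of these 6 lists had a median of 0 to 3.47 CPM and a highest value of 142.3 to 602 CPM. Reads strayed between wells, at an estimated 31.4 reads in each other well of the same lettered row, on either plate, per 10000 reads of a source well, and 13.8 in each other well of the same column and plate. Stray reads were expected to be 3.92% to 64.4% of the counts in a well (median 12.1%), so a gene was called above background in a cell only at 10 CPM or more and at over 3 times its expected stray reads.

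The gene starts of Egfr and Erbb2, the pair with the largest opposite trends along Krt10, and of Errfi1 and Areg, an inhibitor and a ligand with very different read numbers, are shown as the 250 bases upstream of the RefSeq start on GRCm38.p6, 5′ to 3′ on the plus strand. RefSeq windows were held for 6 of the 8 genes. Capitals mark matches to the searched motifs: the cAMP response element TGACGTCA, the AP-1 element TGACTCA, the GC box GGGCGG and the CCAAT box on both strands, and the TATA box TATAAA on the strand of the gene.
Egfr, chr11:16751953-16752202: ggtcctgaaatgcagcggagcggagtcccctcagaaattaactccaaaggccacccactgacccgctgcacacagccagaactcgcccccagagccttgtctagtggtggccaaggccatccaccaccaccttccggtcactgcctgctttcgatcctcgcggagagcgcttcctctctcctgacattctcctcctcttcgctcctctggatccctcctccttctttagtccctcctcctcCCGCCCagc
Erbb2, chr11:98412234-98412483: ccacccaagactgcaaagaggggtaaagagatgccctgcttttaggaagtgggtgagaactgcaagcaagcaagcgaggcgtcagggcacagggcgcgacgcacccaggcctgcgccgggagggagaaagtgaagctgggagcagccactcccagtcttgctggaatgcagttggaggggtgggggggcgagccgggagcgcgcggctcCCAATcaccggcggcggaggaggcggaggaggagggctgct
Errfi1, chr4:150854820-150855069: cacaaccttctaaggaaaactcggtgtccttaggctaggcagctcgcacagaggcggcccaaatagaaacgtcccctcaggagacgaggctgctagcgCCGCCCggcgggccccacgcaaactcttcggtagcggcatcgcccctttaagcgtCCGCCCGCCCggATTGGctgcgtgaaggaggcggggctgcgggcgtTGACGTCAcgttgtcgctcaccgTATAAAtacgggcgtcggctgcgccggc
Areg, chr5:91139349-91139598: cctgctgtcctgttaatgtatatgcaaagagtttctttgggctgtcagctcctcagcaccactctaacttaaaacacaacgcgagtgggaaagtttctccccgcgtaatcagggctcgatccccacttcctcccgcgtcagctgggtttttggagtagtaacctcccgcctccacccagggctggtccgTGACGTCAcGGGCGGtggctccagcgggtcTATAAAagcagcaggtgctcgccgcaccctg
The Egfr window held 1 GC box, and the Erbb2 window held 1 CCAAT box and neither a GC box nor a TATA box. A GC box is present in 32.7% and a CCAAT box in 33.8% of 32851 mouse windows of this length. The windows of Errfi1, at the downstream of its 2 RefSeq starts, and of Areg each held the cAMP response element and the TATA box, which occur in 1.55% and 7.59% of all windows. The window at the upstream start of Errfi1 held none of these motifs. These matches describe the letters of the windows, and nothing in the counts reads out binding there.

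Egfr was the receptor with the broadest presence. The gene lies on chromosome 11 (GRCm38 positions 16752203 to 16918158, plus strand) and its level ran from 0 to 607 CPM with a median of 88.5 CPM and a mean of 122.03 ± 124.2 CPM (SD over all cells). It had a read in 98.9% of cells and was above background in 60.1% (exact Clopper-Pearson 95% interval 52.7% to 67.2%, counting error only). The median was 103.03 CPM on plate 1 and 77.4 CPM on plate 2, and the 5 cells with most reads held 14.9% of all its reads. Egfr was thus spread over most cells and not carried by a few.

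Erbb2 and Erbb3 were present in fewer cells and at similar levels. Erbb2, on the same chromosome (98412470 to 98437716, plus strand), ran from 0 to 352 CPM with a median of 11.2 CPM, a mean of 50.98 ± 75.6 CPM, and 75 cells above background. Erbb3, on chromosome 10 (128567523 to 128589652, minus strand), ran from 0 to 465 CPM with a median of 16.1 CPM, a mean of 46.9 ± 70.7 CPM, and 87 cells above background. For each of them more cells were at or below background than above it, and a tail of cells lay above 100 CPM. Per kilobase of exon length the mean levels of Egfr, Erbb2 and Erbb3 were 10.8, 9.78 and 7.80 CPM, a difference far smaller than the SD between cells. Erbb4, the remaining receptor of the family, had 0 reads, which leaves room for at most 1.60% of cells to hold a read and sets no limit on cells that express it below detection.

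The inhibitors differed in reach. Errfi1, on chromosome 4 (150853919 to 150868892, plus strand), had a median of 6.48 CPM and a mean of 37.1 ± 84.2 CPM, and it was above background in 60 cells. Its highest cell, well G12 of plate 1, had 848 CPM, against 324 CPM in the next cell. Lrig1, on chromosome 6 (94604529 to 94700158, minus strand), had a read in 42 cells, a highest value of 278 CPM and a mean of 7.25 ± 33.4 CPM. Its mean level per kilobase was 1.30 CPM, against 10.4 CPM for Errfi1.

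Each of the 3 ligands was above background in 40 cells or fewer. Hbegf, on chromosome 18 (36504927 to 36515805, minus strand), had a median of 1.85 CPM and a mean of 24.9 ± 89.1 CPM, and was above background in 40 cells. Tgfa, on chromosome 6 (86195223 to 86275719, plus strand), had 496 reads in all, was above background in 11 cells and had 85.9% of its reads in 5 cells. Areg, on chromosome 5 (91139599 to 91148432, plus strand), had 2 reads, both in well H5 of plate 1, and none on plate 2. No cell reached 10 CPM of Areg, and that count of 0 has the same limit of 1.60% of cells. Among the other ligands, Epgn was above background in 13 cells and Nrg1, a neuregulin that binds Erbb3, in 30 cells. Ereg, Btc, Egf, Nrg2, Nrg3 and Nrg4 were above background in 0 to 5 cells each. At least 1 of the 11 ligands was above background in 83 cells, 44.1%.

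**Figure D1:**
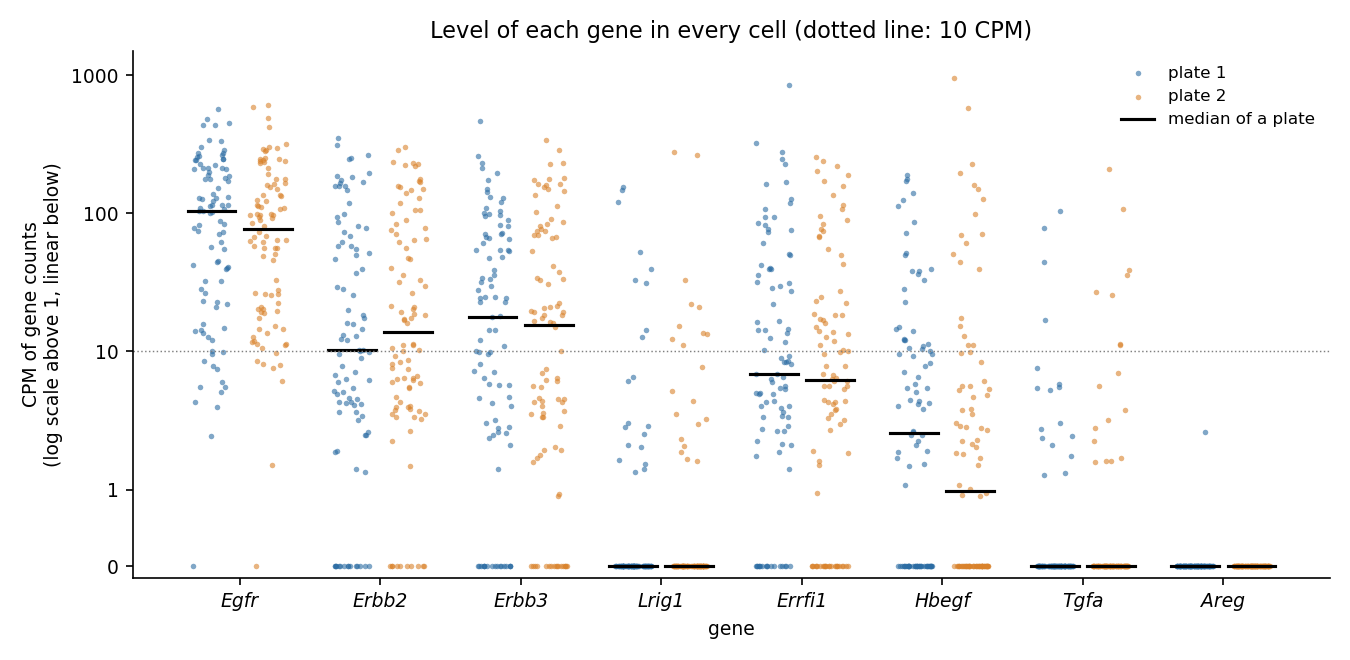
Level of the 8 genes in every cell, in CPM on an axis that is logarithmic above 1, with plate 1 in blue, plate 2 in orange and a black bar at the median of each plate. Egfr has medians of 103.03 and 77.4 CPM on the 2 plates, Lrig1, Tgfa and Areg have medians of 0, and the single dot of Areg is the cell with 2 reads.

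The first question was how the receptors run along Krt10. Egfr was lower and Erbb2 higher in cells with more Krt10, on both plates, but each trend was weak. Erbb3 leaned higher by less. Spearman's rho of Egfr with Krt10 was -0.230 over all cells, and -0.162 and -0.272 on plates 1 and 2. Erbb2 had 0.225 over all cells, and 0.134 and 0.286 on the plates, and Erbb3 had 0.116, and 0.0828 and 0.189. All these cells form a single group without named animals and the values share the CPM denominator, so the coefficients describe these cells only. Over the 9344 genes tested, those that reached 10 CPM in 10% of the cells or more, the median rho was -0.00458. Of these, 2.41% lay at or below Egfr, 2.65% at or above Erbb2 and 11.9% at or above Erbb3. The receptors were chosen with earlier results of these data known, so these ranks are a description and no independent evidence.

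None of the 6 genes of the group in this test met the rule of rho at or past 0.2 in size on both plates. Across all 9344 genes, 1.82% met it in the higher and 1.96% in the lower direction. At 0.1 in size on both plates, a threshold added after the values were seen, Erbb2 was counted higher and Egfr and Lrig1 lower, against a background of 7.28% higher and 8.6% lower. Lrig1 had rho -0.127, Errfi1 -0.0782, Hbegf -0.102 and Tgfa 0.0729 with Krt10. In counts this sparse, coefficients of that size, that of Erbb3 among them, are no finding.

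Subtracting the expected stray reads left the signs of the receptors in place. Egfr then had rho -0.206 (-0.238 and -0.146 on plates 1 and 2), Erbb2 0.169 (0.0755 and 0.233) and Erbb3 0.115 (0.117 and 0.131). Hbegf moved to 0.0150, the other side of 0. Dividing by spike-in counts in place of gene counts moved the median gene to 0.103, Egfr to -0.0931, Erbb2 to 0.294 and Erbb3 to 0.219. Relative to the median gene on that scale, rho was -0.196 for Egfr, 0.191 for Erbb2 and 0.117 for Erbb3. Erbb2 (0.229 and 0.334 on plates 1 and 2) and Erbb3 (0.204 and 0.273) then met the rule of 0.2 in the higher direction, as did 11.4% of all genes, while none of the 6 genes did in the lower direction, against 0.128%.

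**Figure D2:**
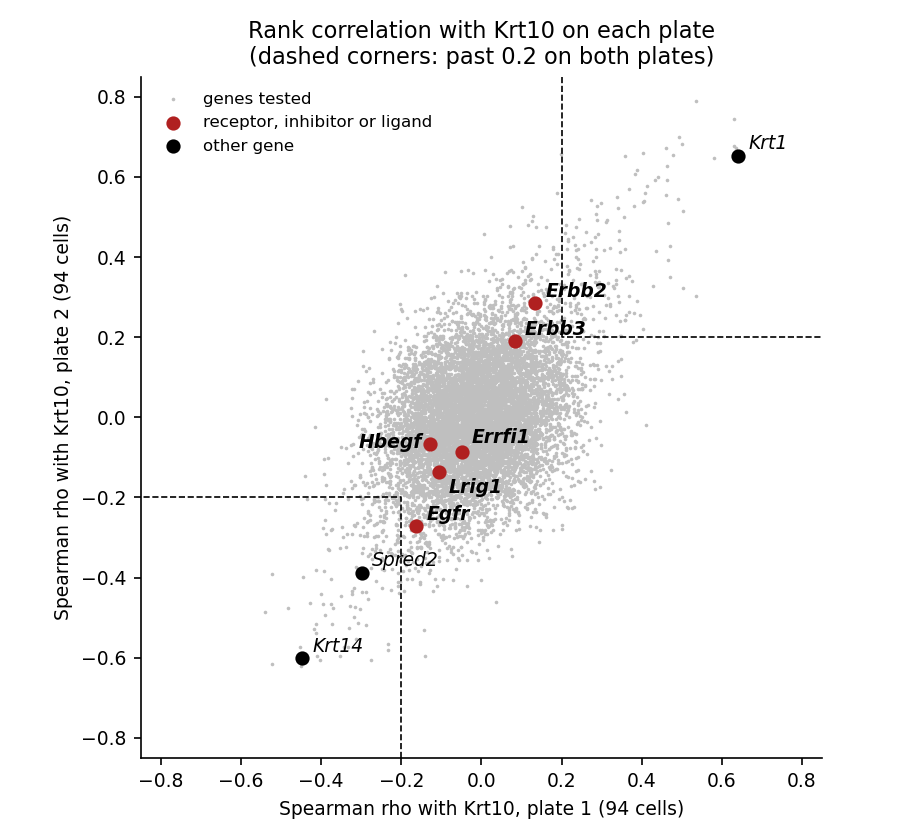
Spearman's rho of each gene with Krt10 on plate 1 (horizontal) and plate 2 (vertical), with 9344 genes in grey, the receptors, inhibitors and Hbegf in red, and Krt1, Krt14 and Spred2 in black. Erbb2 at 0.134 and 0.286 and Egfr at -0.162 and -0.272 lie on opposite sides of 0, past 0.2 in size on plate 2 and short of it on plate 1, so neither reaches the corners that the dashed lines mark.

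Splitting the cells of each plate into 4 equal bins by Krt10 shows where the Egfr trend sits. Pooled Egfr was 129.3, 172.2, 132.4 and 52.5 CPM from the lowest to the highest bin, with n of 48, 48, 46 and 46 cells. Krt10 itself was above background in 0, 2, 7 and 43 cells of these bins. The median cell had 102.4, 110.2, 94.3 and 25.8 CPM. The exact Poisson 95% interval, for counting error only, was 49.3 to 55.9 CPM in the highest bin and 124.9 to 133.7 CPM in the lowest. Pooled Egfr did not decline steadily over the first 3 bins, and the low Egfr level was that of the highest bin, on plate 1 (55.6 CPM) as on plate 2 (49.9 CPM).

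Erbb2 had its low point at the other end. Pooled Erbb2 was 20.9, 79.9, 55.5 and 66.9 CPM from the lowest to the highest bin, with medians of 6.26, 19.3, 11.2 and 24.7 CPM. On plate 1 the lowest and highest bins had 19.2 and 65.8 CPM, and on plate 2 they had 22.7 and 67.8 CPM. The pooled level was lowest in the lowest bin and did not climb steadily over the rest. The step up from the lowest bin lay between bins with Krt10 above background in 0 and 2 cells. The part of stray reads and of depth in the Krt10 order of such cells was not tested. The median cell on plate 1, with 5.61, 25.8, 7.04 and 15.9 CPM over the bins, was about as low in the next to highest bin as in the lowest. Erbb3 peaked in the next to highest bin on both plates, with pooled values of 38.1, 33.1, 71.8 and 39.2 CPM. Its median cell had 10.1, 6.34, 29.2 and 23.4 CPM, so the lowest and highest bins were close in pooled level but not in the median, and on plate 1 the median was highest in the highest bin (24.8 CPM).

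As a ratio of pooled CPM, the highest over the lowest bin gave 0.406 for Egfr, 3.19 for Erbb2 and 1.03 for Erbb3. The Erbb3 ratio went opposite ways on the plates, with 0.837 on plate 1 and 1.32 on plate 2. By a rule of at least 1.5-fold on both plates, Erbb2 was counted higher and Egfr and Hbegf lower, against 6.95% of genes higher and 12.9% lower. The Hbegf ratio of 0.612 became 1.14 without well D8 of plate 2, which held 18.6% of the Hbegf reads. Without the cell with most Egfr reads, the Egfr ratio was 0.443. The cell with most Erbb2 reads, well G10 of plate 2, lay in neither outer bin. Leaving it out could therefore not change the Erbb2 ratio. Pooled Errfi1 was 32.6, 61.1, 38.2 and 16.1 CPM over the bins, but its highest-over-lowest ratio was 0.824 on plate 1 and 0.296 on plate 2.

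**Figure D3:**
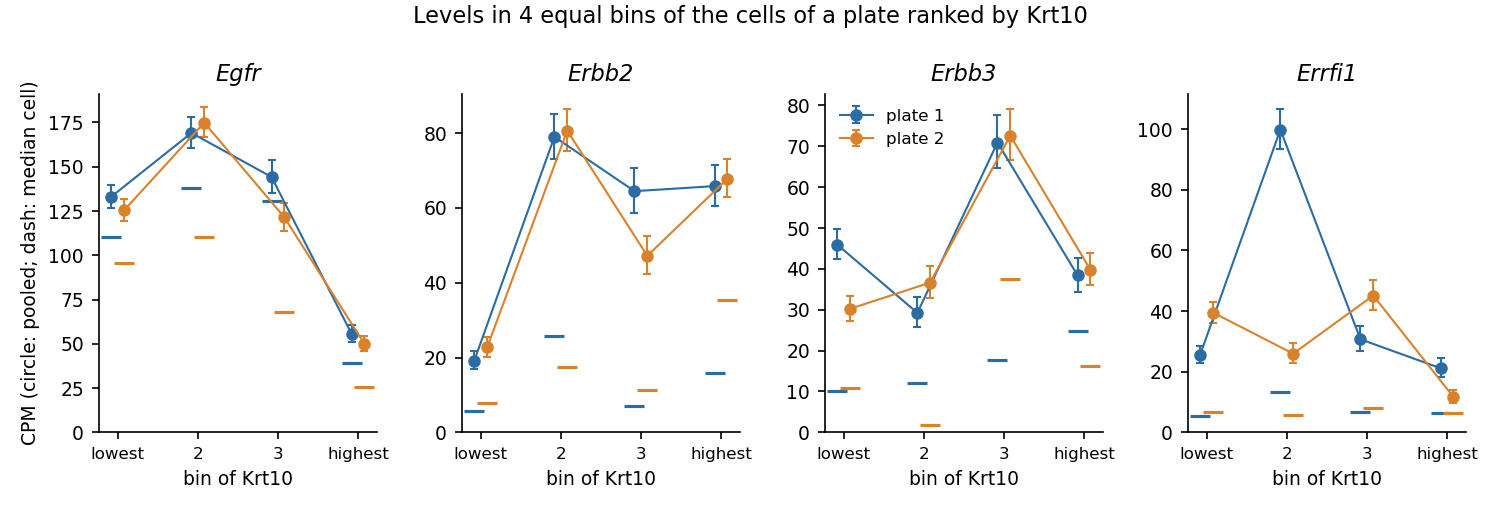
Pooled CPM (circles, with exact Poisson 95% intervals for counting error) and median CPM of single cells (dashes) of Egfr, Erbb2, Erbb3 and Errfi1, by bin of Krt10 from lowest to highest, with 23 or 24 cells per bin on each plate. Egfr drops to 55.6 and 49.9 CPM in the highest bin on plates 1 and 2, and Erbb2 is lowest in the lowest bin.

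Much of the Krt10 signal of a low cell can be stray, so the cells were also split by whether Krt10 exceeded 3 times its expected stray reads, a split added after the values were seen. This held for 52 cells, 21 on plate 1 and 31 on plate 2, which had 807 to 45289 CPM of Krt10, against 185.4 to 4324 CPM in the other cells. Egfr ran from 1.52 to 316 CPM with a median of 25.8 CPM in the 52 cells, and from 0 to 607 CPM with a median of 108.4 CPM in the others. Egfr was above background in 40.4% of the 52 cells and in 67.6% of the others. The ranges overlapped, while pooled Egfr was 62.6 CPM with Krt10 and 147.3 CPM without, a ratio of 0.425 (0.392 on plate 1 and 0.442 on plate 2).

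The partner receptors leaned the other way by less. Erbb2 had a median of 24.7 CPM (0 to 245 CPM) in cells with Krt10 above background and 9.43 CPM (0 to 352 CPM) in the others, and was above background in 53.8% and 34.6% of them. Erbb3 had a median of 27.3 CPM (0 to 340 CPM) in cells with Krt10 and 10.1 CPM (0 to 465 CPM) in the others, and was above background in 59.6% and 41.2%. The share of cells moved more than the pooled level, whose ratio was 1.49 for Erbb2 (1.27 on plate 1 and 1.71 on plate 2) and 1.15 for Erbb3. By the rule of 1.5-fold on both plates none of the 6 genes was counted higher and Egfr and Hbegf lower, against 5.03% of genes higher and 10.6% lower. Hbegf again rested on well D8 of plate 2, with a ratio of 0.664 with it and 0.869 without. The Erbb2 ratio was 1.37 without well G10 of plate 2, the cell with most Erbb2 reads.

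Other properties of the cells moved with this split. The summed basal keratinocyte list (10 of 10 genes with reads) ranged from 3669 to 91920 CPM with a median of 33008 CPM in the 52 cells, and from 34088 to 119298 CPM with a median of 71851 CPM in the others. Median depth was 405831 gene counts in the 52 cells and 346008 in the others, and the median ratio of gene to spike-in counts was 195.2 and 154.6. The Spearman coefficient of Egfr with the gene to spike-in ratio was -0.189. The part of these properties in the Egfr difference was not tested. Within the 52 cells alone, rho with Krt10 was -0.138 for Egfr, 0.0824 for Erbb2 and -0.0514 for Erbb3.

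**Figure D4:**
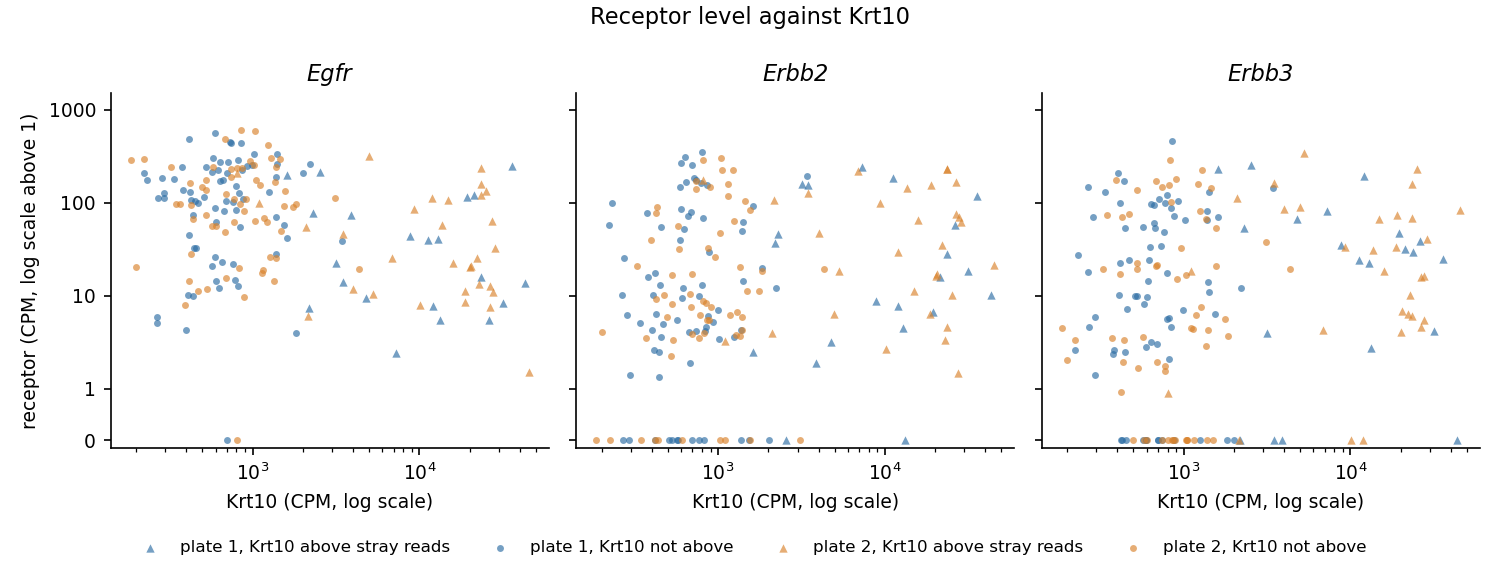
Level of Egfr, Erbb2 and Erbb3 (vertical, CPM, logarithmic above 1) against Krt10 (horizontal, CPM, log scale) in every cell, with plates by colour and triangles for the 52 cells with Krt10 above 3 times the expected stray reads. Egfr has a median of 25.8 CPM among triangles and 108.4 CPM among circles, with overlapping ranges, and Erbb2 and Erbb3 have higher medians among triangles.

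The genes whose level followed Egfr most closely were in part genes of the basal side of the cell. Among the 6962 genes that reached 10 CPM in 25% of the cells or more, ranked by the smaller of the plates' rho, the leading 5 were Glul (0.363), Itga6 (0.323), Wnt7b (0.322), Lamb3 (0.309) and Jag2 (0.272). Glul encodes glutamine synthetase, Itga6 the integrin used for the sort, Lamb3 a laminin chain of the basement membrane, Wnt7b a Wnt ligand and Jag2 a Notch ligand. The Spearman coefficient of Egfr was 0.340 with the score of the 10 basal genes (0.297 and 0.372 on plates 1 and 2) and 0.258 with Krt14. It was -0.266 with the early differentiation score and -0.272 with Krt2, a keratin of differentiating interscale epidermis.

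Erbb2 and Erbb3 had other companions. For Erbb2 the leading genes by the same rule were Ing5 (0.277), Kremen1 (0.260), Tbc1d15 (0.249), Cyp51 (0.240) and Zfpl1 (0.234). For Erbb3 they were Neat1 (0.313), Zc3h15 (0.301), Ago2 (0.3003), Psme4 (0.3002) and Arrdc3 (0.271). Neat1 is the nuclear RNA that builds paraspeckles and Ago2 the core protein of RNA silencing. Hbegf was followed most by Dnajc13 (0.298), Arglu1 (0.256) and Spry2 (0.237), an inhibitor of receptor signalling. Errfi1 was followed most by Usp16 (0.247) and Aida (0.241). These are the top ranks of 6962 genes each, given as a description.

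Coefficients between the genes were small. No background of other gene pairs was computed, and in counts this sparse small values do not show independence. Over the 21 pairs that leave out Areg, rho ran from -0.0698 for Erbb2 and Tgfa to 0.123 for Lrig1 and Hbegf, with a median of 0.0103, and 0 pairs reached 0.2 on both plates. Egfr and Erbb2 had rho 0.0103 and were both above background in 43 cells, 38.1% of the Egfr cells and 57.3% of the Erbb2 cells. The product of their shares gives 45.1 cells. Erbb2 and Erbb3 had rho 0.0315 and were both above background in 38 cells, where the product of shares gives 34.7. Of all cells, 30 had none of the 3 receptors above background, 60 had 1, 79 had 2 and 19 had all 3. The products of shares give 24.2 cells with none and 20.9 with all 3. The 30 cells had a median depth of 271320 gene counts, against 385774 to 411283 in the other classes, and the part of depth in this was not tested.

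Beyond sampling noise the genes varied about as much as a typical gene. The squared coefficient of variation over the trend of the spike-ins, on the plate with the smaller ratio, was 1.43 for Egfr, 1.46 for Erbb2, 1.30 for Erbb3 and 1.72 for Errfi1, against a median of 1.28 over 8556 genes. None of the 5 genes with a mean of at least 10 CPM passed 2 times the trend on both plates, against 8.53% of the 8556 genes. Hbegf reached 7.29 on plate 2 and 1.05 on plate 1, where its highest cell had 189 CPM, against 953 CPM on plate 2. For scale, Krt10 had 56.1.

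In CPM, genes of the wider pathway met the rule along Krt10 about as often as all genes did. Of 82 genes in 8 lists (receptors, ligands, shedding, inhibitors, adaptors, Ras-MAPK, PI3K-Akt with Stat3, and ERK-induced genes), 62 could be compared, with a median rho of -0.0240. None met the rule of 0.2 in the higher direction, against 1.82% of all genes, and 1 did in the lower, against 1.96%. This was Spred2, a membrane inhibitor of Raf activation, with rho -0.358 (-0.299 and -0.388 on plates 1 and 2). Its relative Spred1 had -0.274 (-0.175 and -0.324). With spike-in scaling 5 of the 62 genes met the rule in the higher direction, against 11.4% of all genes, and none in the lower, against 0.128%. In CPM none met a rule of 0.3, against 0.631% of all genes higher and 0.471% lower. The inhibitor list had a median of -0.0789 over 14 genes, with 10 below 0 and 4 above.

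The other lists gave single names and no common direction. Among ERK-induced genes, Etv5 had -0.174, Ier3 -0.193 and Fos 0.134, and the 11 genes compared had a median of -0.0256. Nrg1 had -0.163. The shedding list, which holds the proteases Adam17 and Adam10 and their regulators Rhbdf1 and Rhbdf2, had a median of 0.0807 over 4 genes, and the adaptors a median of -0.0152 over 8. The 12 Ras-MAPK genes split into 6 below and 6 above 0. After subtraction of stray reads, Spred1, Spred2, Ier3 and Etv5 met the rule in the lower direction, against 2.14% of all genes, and none in the higher direction, against 1.81%.

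The second question was how much Lrig1 RNA remained after cells with the Lrig1 reporter had been left out. Lrig1 reached 10 CPM in 19 cells, and 17 of these, 9.04% of all cells (exact 95% interval 5.36% to 14.1%), were above background, 9 on plate 1 and 8 on plate 2. The highest were well D8 of plate 2 with 278 CPM (96 reads), B2 of plate 2 with 266 CPM, D1 of plate 1 with 155.4 CPM, A6 of plate 1 with 147.4 CPM and D8 of plate 1 with 120 CPM. These 5 wells stood apart from the rest of the 17, which had 12.7 to 52.7 CPM, and the 5 wells with most reads held 76.6% of all 525 Lrig1 reads. The expected stray reads of Lrig1 were under 1 in each of the 19 wells. The lettered row D of the 2 plates held 8 of the 19 wells and 6 of the 17, and the part of straying beyond the estimate was not tested. With every cell thinned to 75000 counts, 26 cells (13.8%) had an Lrig1 read, against 42 cells (22.3%) unthinned.

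The Lrig1 cells did not share a follicle profile. Of the other 9 genes of the upper follicle list, a median of 2 were above background in the 17 Lrig1 cells and a median of 2 in the remaining cells, with a range of 0 to 5 in each. Plet1, a marker of the junctional zone, was above background in 3 of 17 Lrig1 cells (17.6%) and 42 others (24.6%), Lgr6 in 4 (23.5%) and 35 (20.5%), and Krt79 in 2 (11.8%) and 14 (8.19%). Sostdc1 was above background in 5 Lrig1 cells (29.4%) and 44 others (25.7%). Pooled Plet1, Lgr6, Krt79, Defb6 and Krt17 each went opposite ways on the plates. Plet1 had 10.02 CPM in Lrig1 cells and 62.5 CPM in others on plate 1, and 74.2 CPM and 17.3 CPM on plate 2. Pooled Sostdc1 was higher in Lrig1 cells than in others on both plates. It had 38.9 CPM and 26.4 CPM on plate 1, and 135.96 CPM and 58.7 CPM on plate 2. Pooled Cst6 and Klk6 were lower in Lrig1 cells on both plates. Gata6, a factor of the sebaceous duct, was without reads.

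Single Lrig1 cells differed in which follicle genes they carried. Well D8 of plate 2 had Plet1 at 348 CPM, Krt79 at 133.2 CPM and Krt17 at 313 CPM, and also the highest Hbegf of all cells at 953 CPM. Well B2 of plate 2 had Plet1 at 143.5 CPM and Sostdc1 at 567 CPM, and well D8 of plate 1 had Lgr6 at 399 CPM. Well A6 of plate 1 had no read of Plet1, Lgr6, Krt79 or Defb6, but had Krt17 at 27.4 CPM and Cst6 and Sostdc1 at 20.6 CPM each. Egfr was at 339 CPM in that well. The 17 cells had Krt14 from 23065 to 64644 CPM and Itga6 from 198 to 1768 CPM, above background in 15 and 14 of them.

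**Figure D5:**
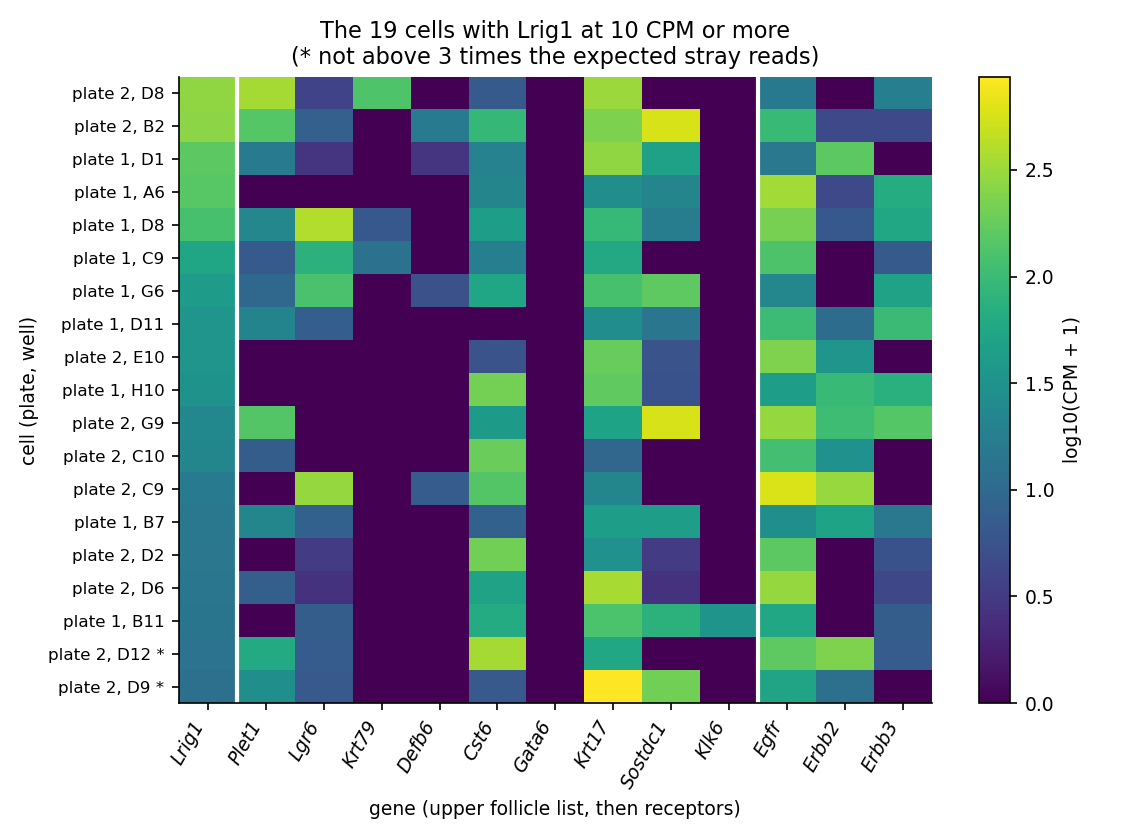
The 19 cells with Lrig1 at 10 CPM or more, ordered by Lrig1, against the upper follicle list and the receptors, coloured by log10(CPM + 1), with an asterisk on the 2 cells not above 3 times the expected stray reads. The strongest follicle genes differ from cell to cell, such as Plet1 at 348 CPM in well D8 of plate 2 and Lgr6 at 399 CPM in well D8 of plate 1.

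Along Krt10, Lrig1 showed no direction that held over the measures used. Lrig1 was above background in 2 of the 52 cells with Krt10 above background and in 15 of the others, shares of 3.85% and 11.0%. Pooled Lrig1 did not follow this on both plates. It was 10.3 CPM with Krt10 and 4.49 CPM without on plate 1, where well D1 carried 3462 CPM of Krt10, and 1.06 CPM and 11.6 CPM on plate 2. Egfr was above background in 70.6% of the Lrig1 cells and 59.1% of the others, with medians of 113.9 CPM and 83.8 CPM. The plates differed in this, with pooled Egfr of 94.6 CPM in Lrig1 cells and 127.5 CPM in others on plate 1, and 209 CPM and 109.6 CPM on plate 2. The coefficient between Egfr and Lrig1 was -0.0903 on plate 1 and 0.230 on plate 2.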

How the data were processed

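Whole-number read counts per gene were deposited by the authors for 188 single cells, with no scaling applied. Tools listed in the submitters' processing notes are HTSeq 0.6.0, STAR 2.5.2b and cutadapt 1.13, with genome GRCm38. The sources used here give neither settings nor the annotation release. Strand was not stated to be used, so counts can be off where exons overlap: Lrig1 exons overlap Slc25a26, Tgfa Gm43917, Erbb2 Mien1 and Krt10 the antisense Gm11940. Without molecular identifiers, reads are amplified copies, and intervals and the limit of 3 cells for a count of 0 cover counting error only.

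Symbols matched 49326 of 49585 gene rows. Counts were divided by each cell's gene total (Python 3.11.15, scipy 1.17.1; scran 1.30.0 for pooled size factors). All 188 cells were kept and no doublet caller was run. Spearman's rho was computed over all cells and per plate. Stray rates came from 144 genes led by at most 3 cells. List scores are mean z of log2(CPM + 1) over genes that reach 10 CPM in 5% of cells. Positions and exon lengths are of GENCODE M21. The rule on rho was also run on simulated counts that held no stray reads, so it was not checked against straying.

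The genes, lists and rules were chosen with earlier results of these data known. Named were all 8 genes, per pathway list the counted genes or up to 3 with the largest rho, and the 5 genes most like each gene present in at least 25% of cells.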

Additional observations from a re-analysis of the deposited data

How the results depend on the processing

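Of 12 alternatives for rho with Krt10, 10 each moved Egfr and Erbb2 by less than 0.0731, the tolerance set by 1 over the root of the number of cells less 1. Egfr stayed below 0 (-0.297 to -0.0931) and Erbb2 above 0 (0.0824 to 0.294) in all of them. Spike-in scaling gave Egfr -0.0931, Erbb3 0.219 and Tgfa 0.149, beside a median of 0.103 over all genes. Krt1 in place of Krt10 gave Erbb2 0.140 and Hbegf 0.00607, subtraction of stray reads gave Hbegf 0.0150, and Pearson's r of log2 values gave Tgfa 0.162. Only the 52 cells with Krt10 above background, a setting chosen after seeing the data, gave Egfr -0.138, Erbb2 0.0824, Erbb3 -0.0514, Lrig1 0.0586, Hbegf -0.272 and Tgfa 0.246. The cause was not tested. The share of cells with Lrig1 was 10.1% at 10 CPM, 22.3% at 1 read and 3.19% at 50 CPM. The pathway lists had 1 gene counted (lower), and 5 with spike-in scaling (all higher, against 11.4% of all genes), 4 after subtraction of stray reads (all lower, against 2.14%), 0 at a rho of 0.3, and 10 at 0.1 (2 higher, against 7.28%, and 8 lower, against 8.6%). Of the genes compared with the spike-in trend, 1 passed after subtraction of stray reads and 0 before. The ratio of Erbb2 was 3.19 between the outer bins of Krt10 and 1.49 between cells with Krt10 above background and the others. No paired analysis was possible because all cells form 1 group. Depth limits the low genes: Lrig1, Tgfa and Areg had 525, 496 and 2 reads in all, and no animal is named, so the spread between animals is not known.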
